A study of Rattus norvegicus with 12 samples.

Results

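The NMDA receptor subunit genes of the rat were followed in the ventral dentate gyrus, a hippocampal field built mainly of granule neurons, in total RNA libraries from male rats. They are the rows of the deposited counts with the symbols Grin1, Grin2a, Grin2b, Grin2c, Grin2d, Grin3a and Grin3b. The genes were listed by name, with earlier results of these data known. All 7 were found among the 17172 genes in the files, and 6 of them passed the filter on low counts, which kept 11750 genes. The missing one, Grin3b, had too few reads to be tested.

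The 12 libraries form 4 groups of 3. LAC responders and LAC non-responders are Flinders Sensitive Line (FSL) rats that received L-acetyl-carnitine (LAC) at 0.3% w/v in their drinking water for 7 days, about 210 mg/kg of body weight per day, and that the labels divide by response. FSL vehicle rats are of the same line and drank tap water. Flinders Resistant Line (FRL) vehicle rats drank tap water too and belong to the control line. Both lines are labelled as Sprague-Dawley. FSL rats are bred and used as a model of depression, so line differences cover all that separates the lines, and FSL vehicle was not divided by response. The measure of response, the ages and the number of animals per library were not stated in the labels. They call the libraries biological replicates, and the p-values measure the spread between them.

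NMDA receptors are glutamate-gated cation channels that let calcium in when glutamate and a co-agonist, glycine or D-serine, bind while the membrane is depolarised, which relieves a block by magnesium. Each channel is a tetramer with obligatory GluN1 subunits, encoded by Grin1, and GluN2 or GluN3 subunits that set its kinetics and magnesium block. In the hippocampus the receptor is known for its part in synaptic plasticity, and it is the target of the antidepressant drug ketamine.

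Counts in genes summed to 5.91 to 8.14 M per library, so a count of 3 corresponds to 0.367 to 0.511 CPM, the counts per M reads in genes after scaling between libraries. This floor covers counting error only. Prox1, a transcription factor that defines dentate granule neurons, was present in all libraries, at 51.6 to 129 CPM in 10 of them. It stood at only 9.18 CPM in responder 1 and 10.4 CPM in FRL vehicle 2. Responder 1 also had 156 CPM of Tcf7l2 and 274 CPM of Slc17a6, which mark thalamic neurons, against at most 20.4 and 69.4 CPM in the other 11 libraries. FRL vehicle 2 had the highest summed markers of CA1 and subiculum (1136 CPM), interneurons (1343 CPM) and cortex and amygdala (563 CPM). For CA1 and subiculum FRL vehicle 3 followed with 1054 CPM, and the remaining libraries had at most 895 CPM. Ttr, the choroid plexus marker, was high in non-responder 1 (5384 CPM), FSL vehicle 1 (2781 CPM) and FSL vehicle 3 (289 CPM). FSL vehicle 3 also had the most of the 14 meninges and fibroblast markers, 3478 CPM in sum against at most 1046 CPM in the other 11 libraries, with 379 CPM of the collagen gene Col1a1 against at most 101 CPM. The tissue is bulk, so fewer cells of a type and less RNA per cell cannot be told apart.

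Grin1, the gene of the subunit that every NMDA receptor needs, varied least of the 6 tested genes. Its levels were 476, 452 and 487 CPM in responders, 480, 419 and 470 CPM in non-responders, 487, 433 and 403 CPM in FSL vehicle and 506, 506 and 512 CPM in FRL vehicle (libraries 1, 2 and 3 of each group). All 9 FSL-line libraries, treated or not, lay below all 3 FRL vehicle libraries, while the 3 FSL-line groups overlapped one another. Behind these levels stood 2879 to 3936 reads per library. The highest library was 1.27 times the lowest, and the standard deviation (SD) of log2(CPM + 1) over the 12 libraries was 0.112, smaller than in most tested genes, whose median was 0.181.

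The sequence before the start of Grin1 is given as an example, from the 4 subunit genes with a promoter in the RefSeq promoter set. It covers the 250 bases upstream of the RefSeq start on GRCr8, chr3:28528755-28529004, minus strand, with CG dinucleotides in capitals.
Grin1 upstream: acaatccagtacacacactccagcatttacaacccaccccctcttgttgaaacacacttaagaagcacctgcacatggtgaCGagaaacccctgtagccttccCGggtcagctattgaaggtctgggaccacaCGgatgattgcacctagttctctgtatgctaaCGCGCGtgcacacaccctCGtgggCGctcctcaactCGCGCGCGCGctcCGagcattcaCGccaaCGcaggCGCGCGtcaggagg
It holds 19 CG dinucleotides, and 18.4% of the 33469 upstream windows in the same set hold as many or more. The GC box GGGCGG was searched on both strands and has 0 matches here, against 30.5% of windows with at least 1. No measurement of the series bears on binding or methylation at this sequence.

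GluN2A and GluN2B, encoded by Grin2a and Grin2b, are the main GluN2 subunits of the adult forebrain, and GluN2B dominates early in development. Grin2a stood at 232, 383 and 445 CPM in responders, 401, 310 and 451 CPM in non-responders, 438, 242 and 289 CPM in FSL vehicle and 445, 337 and 403 CPM in FRL vehicle. The lowest libraries were responder 1 and FSL vehicle 2, each in a group whose highest library reached 445 or 438 CPM, so that all 4 groups overlapped. Grin2a averaged 354 ± 110, 387 ± 71.6, 323 ± 102 and 395 ± 54.3 CPM in the same order (mean ± SD, n = 3 each). Grin2b stood at 568, 596 and 653 CPM in responders, 646, 567 and 664 CPM in non-responders, 725, 543 and 508 CPM in FSL vehicle and 697, 655 and 646 CPM in FRL vehicle. FSL vehicle held both the highest and the lowest library, 1 and 3.

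Grin2c encodes GluN2C, a subunit with weak magnesium block that is abundant in the cerebellum and also found in astrocytes of the rodent forebrain. It stood at 72, 96.3 and 100 CPM in responders, 96.1, 91.7 and 91.2 CPM in non-responders, 121, 88.2 and 77.2 CPM in FSL vehicle and 89.1, 79.8 and 105 CPM in FRL vehicle. The group means lay between 89.6 and 95.5 CPM, closer together than the libraries within any group but non-responders. Gabra6, a defining gene of cerebellar granule cells, was at 0 to 2.2 CPM. Grin2d encodes GluN2D, a subunit of slow receptors found in interneurons of the adult hippocampus. It had 33 to 69 reads per library, which gave 8.2, 7.43 and 7.15 CPM in responders, 4.35, 8.83 and 9.18 CPM in non-responders, 11, 4.38 and 9.65 CPM in FSL vehicle and 5.92, 6.66 and 10 CPM in FRL vehicle. The responder libraries lay inside the range of each other group. Grwd1, which overlaps Grin2d in RefSeq, had 125 to 204 reads, and reads of the pair could be split by the counting.

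GluN3A, from Grin3a, lowers the calcium permeability of the receptor and is most abundant in the young brain. Grin3a stood at 54.8, 18.1 and 17.3 CPM in responders, 17.8, 19 and 26 CPM in non-responders, 31.3, 19.2 and 21.8 CPM in FSL vehicle and 23.4, 32.9 and 24.2 CPM in FRL vehicle. Responder 1 was far above the other 2 responders, which were among the 3 lowest of all 12 libraries. The next highest library was FRL vehicle 2, and these 2 are the libraries low in Prox1. Grin3a was the most variable member, with a highest library 3.18 times the lowest. Grin3b, whose GluN3B subunit is known from motor neurons, had 0 to 2 reads per library and at least 1 read in 6 of 12. Its level was at most 0.258 CPM, under the floor in every library, so it was not detectable above that limit and was not compared.

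**Figure D1:**
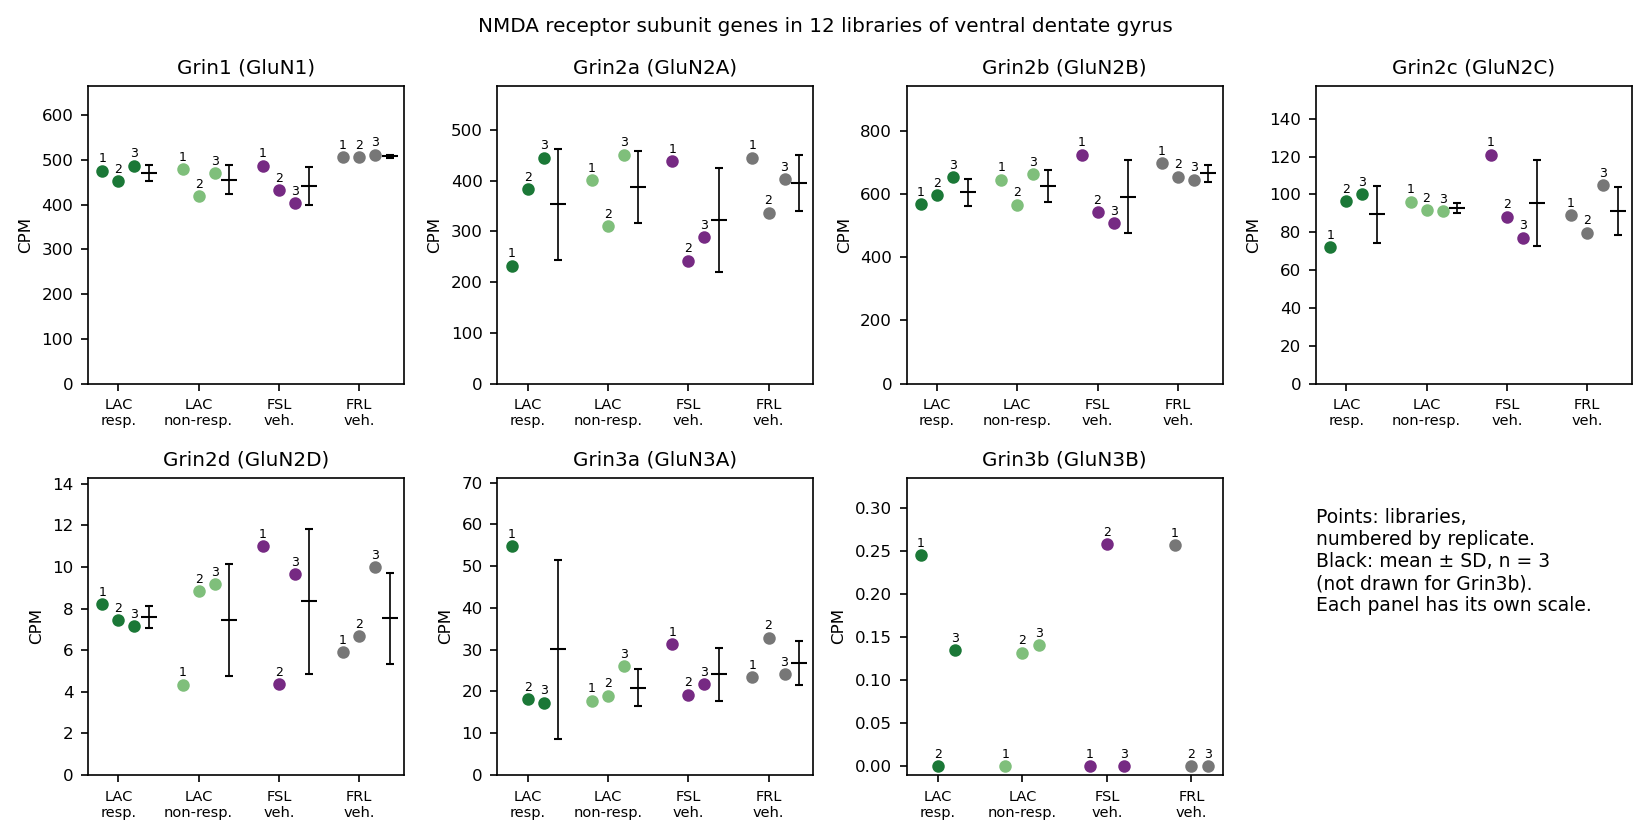
Level of each subunit gene in CPM (vertical axis, each panel with its own scale) in the 12 libraries, by group; points are libraries numbered by replicate and black marks are the mean ± SD (n = 3), not drawn for Grin3b. The 3 FRL vehicle libraries lie above all others for Grin1 (506 to 512 CPM), and responder 1 stands apart for Grin3a (54.8 CPM).

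Group differences were tested with edgeR's quasi-likelihood test in a fit of all 12 libraries, with p-values adjusted by Benjamini-Hochberg (BH) over the 11750 genes and a threshold of 0.05. An F test for any difference among the 4 groups called 0 of the 6 subunit genes, against 0.0255% of all genes, which is 3 genes (98 without FSL vehicle 1 and 2 to 5 without any other library, with 0 subunit genes each time). The adjusted p was 0.719 for Grin1 and 0.901 to 0.991 for the other 5.

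The first comparison set responders against FSL vehicle, for LAC treatment with a response. None of the 6 subunit genes passed, and 0% of all genes were called. The groups overlapped for all 6, where 12.5% of all genes did not overlap. DESeq2 called 187 of all genes, and edgeR called 349 without FSL vehicle 1, with 0 subunit genes in both. At an unadjusted p under 0.05 there were 0 subunit genes by edgeR, DESeq2 or limma-voom, against 13.8% of all genes by edgeR. Grin1 had a log2 fold change of 0.097 ± 0.085 (standard error, SE), with a 95% interval of -0.090 to 0.28. For Grin2b the value was 0.033 ± 0.13 (-0.24 to 0.31), and for Grin2a 0.13 ± 0.26 (-0.45 to 0.71). Grin2c had -0.091 ± 0.17, Grin2d -0.13 ± 0.36 and Grin3a 0.33 ± 0.40 (-0.56 to 1.21). The intervals thus keep Grin1 between 0.939 and 1.22 times its FSL vehicle level, but allow Grin3a up to 2.32 times. The Grin3a value rested on responder 1. Without that library it was -0.44 (adjusted p = 0.485, edgeR).

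Non-responders against FSL vehicle give LAC treatment without a labelled response. None of the 6 genes passed (0 of 6 by edgeR, DESeq2 and limma-voom, also at an unadjusted p under 0.05), where 0% of all genes were called and 4.21% had an unadjusted p under 0.05 by edgeR. The groups overlapped for all 6, where 7.8% of all genes did not. Grin2a had a log2 fold change of 0.26 ± 0.26 SE (interval -0.31 to 0.84), which was 0.548 without FSL vehicle 1, 0.397 without non-responder 2, 0.135 without non-responder 3 and 0.0934 without FSL vehicle 2. It was lower in FSL vehicle 2 and 3 than in any non-responder, and higher in FSL vehicle 1 than in 2 of the 3. Grin1 had 0.049 ± 0.085 (-0.14 to 0.24), Grin2b 0.079 ± 0.13 and Grin2c -0.036 ± 0.17. Grin2d had -0.16 ± 0.36 and Grin3a -0.20 ± 0.41.

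The comparison of responders with non-responders tests whether the LAC groups, which share FSL vehicle as their control, differ from each other. Again 0 of 6 subunit genes and 0% of all genes were called, and 0 subunit genes had an unadjusted p under 0.05 by edgeR, DESeq2 or limma-voom, against 3.14% of all genes by edgeR. All 6 overlapped, where 11.3% of all genes did not. Grin3a had a log2 fold change of 0.53 ± 0.40 SE (interval -0.36 to 1.42; adjusted p = 0.992, edgeR), with 2 of 3 responders below the non-responder median. Without responder 1 it was -0.24. The other values lay between -0.13 for Grin2a and 0.047 for Grin1, and the interval of Grin1 spanned 0.908 to 1.18 times the non-responder level.

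FSL vehicle was compared with FRL vehicle for the line difference without treatment. Of the 6 genes 0 were called by edgeR, DESeq2 or limma-voom, against 0.0681% of all genes by edgeR, which is 8 genes. That number was 271 without FSL vehicle 1 and 3, 2 and 5 without FRL vehicle 1, 2 and 3, with 0 subunit genes each time. Grin1 alone had an unadjusted p under 0.05 by each of the tools (adjusted p = 0.318, edgeR), as did 13.9% of all genes by edgeR. It averaged 441 ± 42.7 CPM in FSL vehicle and 508 ± 3.43 CPM in FRL vehicle, a log2 fold change of -0.20 ± 0.085 SE (interval -0.39 to -0.017). The groups did not overlap for Grin1, as for 13.8% of all genes in either direction and 6.25% in this one. The other 5 genes overlapped. Grin2a (-0.29 ± 0.26) and Grin2b (-0.17 ± 0.13) had negative values too, and Grin3a had -0.16 ± 0.40. Grin2c had 0.065 ± 0.17 and Grin2d 0.15 ± 0.36. Markers of neurons in general moved with Grin1: the summed level of Snap25, Syt1, Rbfox3, Map2, Stmn2 and Thy1, all 6 detected, was 4647 to 6072 CPM in FSL vehicle and 6355 to 6533 CPM in FRL vehicle. It was the 1 list of 17 that was lower in FSL vehicle without overlap, and 5 were higher. The higher lists were microglia (359 to 398 CPM in FSL vehicle, 286 to 304 CPM in FRL vehicle), endothelial cells and pericytes (401 to 864 and 306 to 374 CPM), oligodendrocyte precursors (415 to 577 and 354 to 377 CPM), ependymal cells (22.5 to 59.4 and 12.6 to 18.1 CPM) and choroid plexus (57.7 to 3343 and 17 to 28.2 CPM). With a marker list as a covariate the Grin1 value was -0.048 for general neurons (adjusted p = 0.999, edgeR), a covariate chosen after seeing the data, -0.104 for meninges, -0.206 for thalamus, -0.211 for granule neurons and -0.288 for choroid plexus. Without FSL vehicle 3 it was -0.14. The general neuron list parts these 2 groups without overlap, so its covariate fit cannot tell line from neuron content.

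Since all FSL-line libraries lay below FRL vehicle for Grin1, the mean of the 3 FSL-line groups was set against FRL vehicle, a comparison chosen after these values were seen. Grin1 had a log2 fold change of -0.16 ± 0.069 SE (interval -0.31 to -0.0042) and did not pass (adjusted p = 0.742, edgeR), where 0.162% of all genes were called and 6.66% had an unadjusted p under 0.05, as Grin1 did. Groups without overlap were found in 1.95% of all genes, and in 0.86% with the FSL line lower. With the general neuron marker covariate the value was -0.077.

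**Figure D2:**
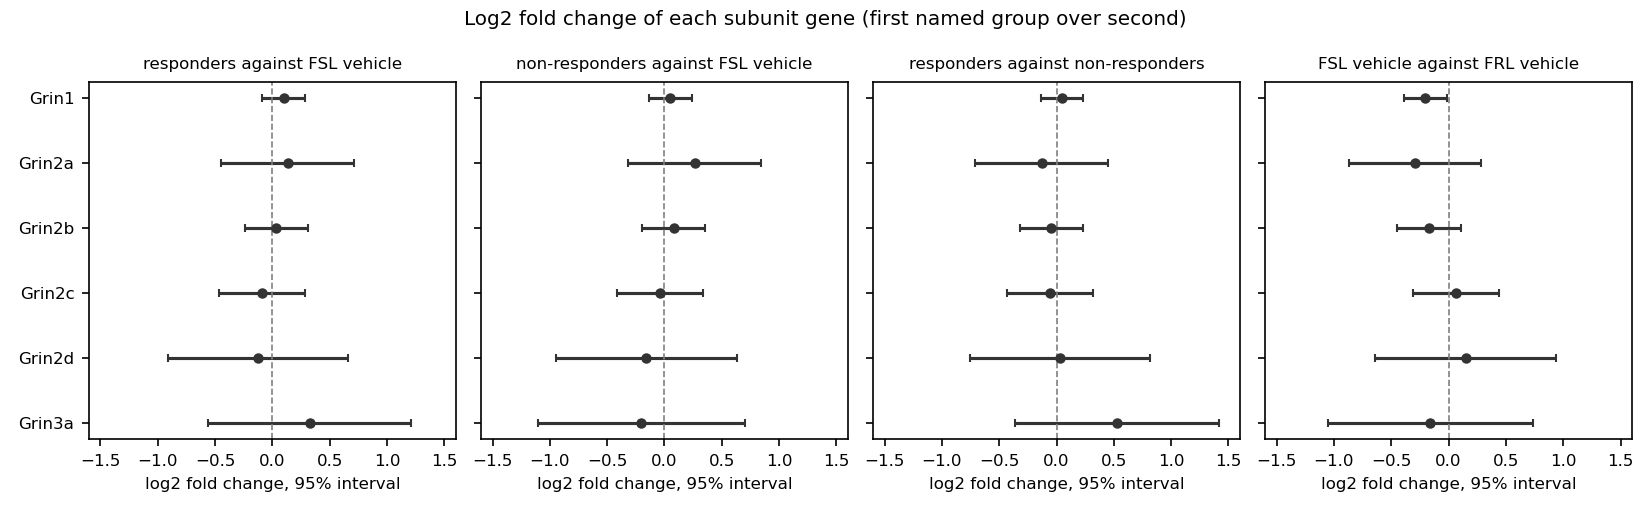
Log2 fold change of the 6 tested subunit genes (horizontal axis, first named group over second) with 95% intervals from the edgeR fit of 12 libraries, in 4 comparisons. Every interval includes 0 except that of Grin1 in FSL vehicle against FRL vehicle (-0.39 to -0.017), which did not pass after adjustment, and the intervals of Grin2d and Grin3a are the widest.

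The ratio of Grin2a to Grin2b reads within 1 library serves as a measure of the balance of the 2 main GluN2 genes that does not depend on scaling; it is not corrected for gene length, so it is compared only between libraries. The ratio was 0.41, 0.643 and 0.682 in responders, 0.622, 0.547 and 0.68 in non-responders, 0.604, 0.445 and 0.569 in FSL vehicle and 0.638, 0.515 and 0.624 in FRL vehicle. Responder 1, FSL vehicle 2 and FRL vehicle 2 were the lowest, and the 4 groups overlapped. On the log2 scale the ratio averaged -0.83 ± 0.40 in responders, -0.71 ± 0.16 in non-responders, -0.90 ± 0.23 in FSL vehicle and -0.76 ± 0.17 in FRL vehicle (SD, n = 3 each). The counting error of a single library was 0.031 to 0.040, far less than the spread within groups. Exact two-sided permutation tests gave p = 0.7 for responders against FSL vehicle (difference 0.078), p = 0.4 for non-responders against FSL vehicle (0.20), p = 0.9 for responders against non-responders (-0.12) and p = 0.5 for FSL vehicle against FRL vehicle (-0.14). With 3 libraries against 3, the smallest p these tests allow is 0.1. Same-numbered non-responder and FSL vehicle libraries differed by 0.0426, 0.296 and 0.257 for numbers 1, 2 and 3, positive in 3 of 3. The labels name no pairing. These numbers were paired because their deviations over all genes correlated, at r = 0.572, 0.189 and 0.425. For number 2 the r with another FSL vehicle number was higher, at 0.33. Non-responder 1 and FSL vehicle 1 also had the highest summed choroid plexus markers, 6237 and 3343 CPM, and the source of the correlations was not tested. An exact sign-flip permutation test of these pairs gave p = 0.25, the smallest that 3 pairs allow. Since the pairs were taken from these same libraries, no conclusion is drawn from it.

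**Figure D3:**
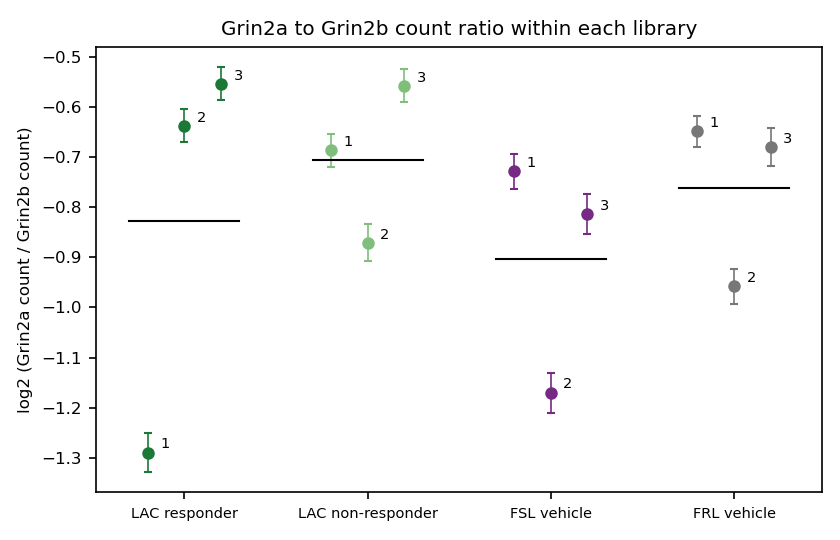
Log2 ratio of Grin2a to Grin2b counts (vertical axis) in each library, by group; bars on the points are the counting error (1 SE), numbers are replicates and black lines are group means. Responder 1 (-1.29) and FSL vehicle 2 (-1.17) are the lowest, and the other 10 libraries lie between -0.96 and -0.55.

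Among themselves the members did not move as 1 block. Over the 12 libraries, Grin2a and Grin2b varied together in log2 CPM (Pearson's r = 0.826, permutation p = 0.001, adjusted p = 0.0075; Spearman's rho = 0.804, permutation p = 0.00238, adjusted p = 0.0357; 15 pairs of members compared). The value of r was 0.848 without the 2 libraries farthest from the median of Grin2a and 0.807 within groups. Grin1 and Grin2b had r = 0.838 (permutation p = 0.00082, adjusted p = 0.0075) and rho = 0.734 (permutation p = 0.00893, adjusted p = 0.067), and r was 0.71 without the 2 libraries farthest in Grin1 and 0.875 within groups. The other 13 pairs did not pass. Grin3a had negative values with Grin2a (r = -0.329, rho = -0.147) and Grin2c (r = -0.385, rho = -0.364), with permutation p of 0.218 to 0.65. The permutations shuffled all 12 libraries regardless of group, and the within-group r values have no p. The libraries share their scaling, and the labels give no batch.

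The subunit levels were also set against markers of cell types. Of 102 relations between the 6 genes and the summed CPM of 17 marker lists, 3 passed by Pearson's r after adjustment and all were of Grin1. Its r was 0.855 with the 6 general neuron markers (permutation p = 0.00032, adjusted p = 0.0163; rho = 0.818, permutation p = 0.00187, adjusted p = 0.077). With 6 markers of oligodendrocyte precursors, such as Pdgfra and Cspg4, r was -0.906 (permutation p = 2e-05, adjusted p = 0.00204) and rho -0.93 (permutation p = 5e-05, adjusted p = 0.0051). With endothelial and pericyte markers, 9 of 10 in the files, r was -0.826 (permutation p = 7e-04, adjusted p = 0.0238) and rho -0.797 (permutation p = 0.00294, adjusted p = 0.077). Without the 2 libraries farthest in the marker level, these r values were 0.738, -0.777 and -0.599, and within groups they were 0.886, -0.816 and -0.737. The summed precursor markers were 391 to 423 CPM in responders, 386 to 478 CPM in non-responders, 415 to 577 CPM in FSL vehicle and 354 to 377 CPM in FRL vehicle.

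Grin2a followed the dentate granule neuron list, of which 6 of 10 markers are in the files, with r = 0.701 and rho = 0.769 (permutation p = 0.0113 and 0.00526), which did not pass after adjustment (adjusted p = 0.116 and 0.0894). For Grin2a r was 0.824 without responder 1 and FRL vehicle 2, the libraries farthest in that list. Grin2c had a similar relation with this list, r = 0.722 and rho = 0.727 (permutation p = 0.00853 and 0.0102, adjusted p = 0.113 and 0.144). Without those 2 libraries its r was 0.573. Grin3a had r = 0.736 with the thalamus list, 6 of 7 markers in the files (permutation p = 0.0195, adjusted p = 0.166; rho = 0.49, permutation p = 0.107, adjusted p = 0.495). This relation rests on responder 1 and FSL vehicle 3, without which r was 0.36. Grin2d had r = 0.482 with the same list (permutation p = 0.108, adjusted p = 0.461). Its rho was 0.783 (permutation p = 0.00398, adjusted p = 0.0812), and r was 0.802 without those 2 libraries. With the interneuron list Grin2d had r = -0.371 and rho = -0.413 (permutation p = 0.239 and 0.184, adjusted p = 0.591 and 0.57). Grin2c had r = 0.578 and rho = 0.601 with the astrocyte list (permutation p = 0.0483 and 0.0427, adjusted p = 0.308 and 0.396). None of these relations passed after adjustment. The summed thalamus markers were 96 to 475 CPM in responders, 78.1 to 132 CPM in non-responders, 96.7 to 192 CPM in FSL vehicle and 80.6 to 117 CPM in FRL vehicle, and 475 CPM was the value of responder 1. The part of cell types in the subunit levels was not tested beyond the covariate fits. For FSL vehicle against FRL vehicle the general neuron fit cannot tell line from neuron content.

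**Figure D4:**
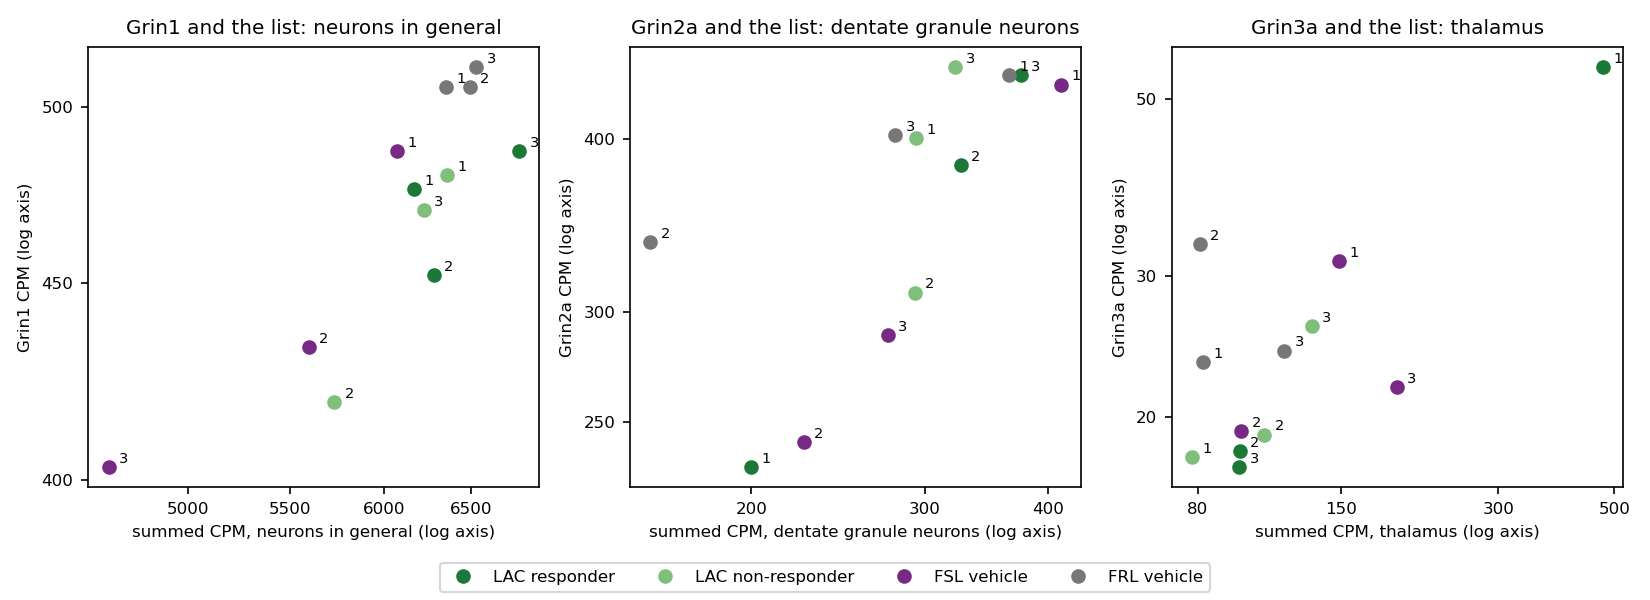
Level of a subunit gene (vertical log axis, CPM) against the summed CPM of a marker list (horizontal log axis) in the 12 libraries, for Grin1 and general neuron markers, Grin2a and dentate granule neuron markers, and Grin3a and thalamus markers; colours are groups and numbers are replicates. FSL vehicle 3 is lowest in both measures on the left (403 and 4647 CPM), and responder 1 is alone at the upper right for Grin3a (54.8 and 475 CPM).

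The genes whose pattern over the 12 libraries was most like a member's are given as a description, with Pearson's r and Spearman's rho of log2(CPM + 1) and no test. Grin1 was nearest to Stxbp5l (r = 0.934, rho = 0.895), a tomosyn that regulates vesicle release, to Synj1 (r = 0.922, rho = 0.846), a lipid phosphatase of synaptic vesicle recycling, and to Uba1 (r = 0.919, rho = 0.818), the main ubiquitin-activating enzyme. Grin2a was nearest to Agap3 (r = 0.958, rho = 0.909), Kcnab2 (r = 0.956, rho = 0.937), a potassium channel subunit, and Ppp3r1 (r = 0.947, rho = 0.902), the regulatory subunit of calcineurin. Without responder 1 and FSL vehicle 2 these r values of Grin2a were 0.904 to 0.92. For Grin2b they were Iqsec3 (r = 0.929, rho = 0.832), a protein of inhibitory synapses, Mras (r = 0.929, rho = 0.881) and RGD1307443 (r = 0.919, rho = 0.874).

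Grin2c was nearest to Dusp4 (r = 0.923, rho = 0.937), a MAP kinase phosphatase, Ppif (r = 0.883, rho = 0.776), the mitochondrial cyclophilin, and Grip1 (r = 0.871, rho = 0.867), a scaffold of AMPA receptors. Grin2d was nearest to Sv2c (r = 0.938, rho = 0.881), a synaptic vesicle glycoprotein, Sfmbt1 (r = 0.915, rho = 0.909) and Adamts19 (r = 0.906, rho = 0.888). For Grin3a the nearest were Klhl1 (r = 0.912, rho = 0.72), Lphn3 (r = 0.91, rho = 0.818), an adhesion receptor of synapses, and Podxl2 (r = 0.907, rho = 0.783). Without responder 1 and FRL vehicle 2 the r values of Grin3a dropped to 0.61 to 0.744.

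The proteins that hold, regulate or supply the receptor were read from 3 lists with 75 symbols, of which 70 are in the files and 65 were tested. They cover scaffolds and partners, kinases and calcium signalling, and enzymes and carriers of glycine, D-serine and kynurenines. In each of the 4 comparisons 0 of the 65 passed in either direction (edgeR, BH), and 3, 1, 1 and 6 had an unadjusted p under 0.05 in responders against FSL vehicle, non-responders against FSL vehicle, responders against non-responders and FSL vehicle against FRL vehicle. These are 4.62%, 1.54%, 1.54% and 9.23% of the 65, below the 13.8%, 4.21%, 3.14% and 13.9% of all genes. The co-agonist list alone was above all genes in FSL vehicle against FRL vehicle (3 of 15, 20%) and in responders against non-responders (1 of 15, 6.67%). The scaffold and kinase lists were below all genes in each comparison.

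In FSL vehicle against FRL vehicle the median log2 fold change of the 65 genes was -0.145, with 12 of 65 positive, where the median of all genes was -0.0083 and 5688 of 11750 were positive. General neuron markers were lower in FSL vehicle too, at 4647 to 6072 CPM against 6355 to 6533 CPM. The part of cell types in the list values was not tested. The smallest p belonged to Phgdh, the first enzyme of serine synthesis, with 67.3 ± 10.1 CPM in FSL vehicle and 89 ± 4.47 CPM in FRL vehicle (log2 fold change -0.40 ± 0.10 SE; adjusted p = 0.238, edgeR). Dlg2, the scaffold PSD-93 that binds GluN2 tails, had -0.23 ± 0.084 and the kinase Prkca -0.45 ± 0.17 (adjusted p = 0.28 and 0.286, edgeR). None of these 3, picked for their small p, passed. In each of them FSL vehicle was lower without overlap, as in 6.25% of all genes.

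In responders against FSL vehicle the median was 0.095, with 45 of 65 positive, beside 0.012 for all genes. The FSL vehicle libraries are those of the line comparison. General neuron markers were at 6170 to 6797 CPM in responders against 4647 to 6072 CPM in FSL vehicle. Here too the part of cell types in the list values was not tested. The members of smallest p were Calm2, a calmodulin gene, with 0.23 ± 0.10, Prkca with 0.38 ± 0.17 and Rasgrf2, an exchange factor for Ras that calcium activates, with 0.61 ± 0.27. None passed (adjusted p = 0.35, 0.35 and 0.351, edgeR). By list, 21 of 27 kinase and calcium signalling genes were positive in this comparison, 16 of 23 scaffold genes and 8 of 15 co-agonist genes, beside 6107 of 11750 of all genes. In non-responders against FSL vehicle, which shares FSL vehicle, these counts were 22 of 27, 13 of 23 and 8 of 15, beside 5745 of 11750. In non-responders against FSL vehicle Prkca averaged 245 ± 28.9 CPM in non-responders and 171 ± 19.3 CPM in FSL vehicle (0.52 ± 0.17; adjusted p = 0.976, edgeR), with no overlap, as in 7.8% of all genes in either direction. Rasgrf2 had 0.55 ± 0.27 there and Gldc, which breaks down glycine, -0.21 ± 0.10. The median of the 65 genes was 0.061, beside -0.0039 for all genes. General neuron markers were at 5729 to 6360 CPM in non-responders, which overlaps FSL vehicle.

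In responders against non-responders the median was 0.024, beside 9.72e-04 for all genes. Srr, serine racemase, which makes the co-agonist D-serine, averaged 51.6 ± 2.29 CPM in responders and 42.6 ± 4.78 CPM in non-responders, without overlap (0.28 ± 0.12; adjusted p = 0.992, edgeR), as in 11.3% of all genes in either direction. The scaffold genes Dlgap3 and Dlg3 followed with 0.19 ± 0.11 and 0.17 ± 0.11. None of the 3 passed.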

How the data were processed

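The deposited values are raw read counts, 1 whole number for each gene symbol, of 12 total RNA libraries (100 bp single reads, ribosomal RNA removed, from about 130 mg of lysed tissue, per the labels' protocols). The submitters' processing notes list the build rn5, HTSeq 0.6.1, edgeR 3.12.0, TopHat2 2.0.9, FastQC 0.11.3 and Trimmomatic 0.33, without their roles. The annotation and strand setting were not given in the sources used here. Lrrc26, Grwd1 and Ppp3r2 overlap Grin1, Grin2d and Grin3a in RefSeq (GRCr8) and had 0, 125 to 204 and 0 to 4 counts, so Grin2d is uncertain. Of the sum of all lines per library, 47.7% to 52.7% were assigned to no counted feature, which need not lie outside genes. Alignments that were not unique made up 24.3% to 28.4%, and 0.0756% to 0.106% were ambiguous. These summary lines were left out.

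Tests on these counts ran in R 4.3.3 with edgeR 4.0.16: default filter, TMM factors (0.975 to 1.04) and a robust quasi-likelihood fit, two-sided. CPM use TMM-scaled library sizes. SE is the absolute log2 fold change over the root of F, and intervals are at 95%. Alternatives used DESeq2 1.42.0, limma 3.58.1 (voom), other scaling and filters, covariates and left-out libraries. The fits were tested on simulated data with a common dispersion and planted changes larger than those of the subunit genes in the main fit. This check does not cover changes as small as theirs. Permutation tests of correlations drew 100000 permutations of all libraries regardless of group, so their p-values do not allow for group differences. Promoter sequences come from RefSeq (GRCr8), which held 7 of 7 members and 4 promoters. Replicate numbers pair FSL vehicle with non-responders by the rule used (correlation of deviations 0.572, 0.189 and 0.425) and no other compared groups. For number 2 an FSL vehicle library of another number had a higher correlation, 0.33. Non-responders and FRL vehicle, which were not compared, had 0.193, 0.271 and 0.0311 for the same numbers. Their highest correlations with another number were -0.00161, -0.0264 and -0.014. The labels name no pairing.

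The members, lists and alternatives were chosen with earlier results of these data known. All 7 members are named; from the pathway lists, the 3 of smallest p per comparison, since none passed; and for each tested member, the 3 genes of highest r. Other genes stand beside results as markers. The comparison of the whole FSL line with FRL vehicle, the neuron covariate and the block in 2 groups were added after seeing the data.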

Additional observations from a re-analysis of the deposited data

How the results depend on the processing

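Under every alternative run, 0 of the 6 subunit genes passed in any of the 4 comparisons. Of 561 gene values under an alternative, 488 kept their sign and 73 turned it, and none of them passed. The lowest adjusted p over the alternatives were 0.0895 for Grin2b and 0.104 for Grin1, both in FSL vehicle against FRL vehicle without FSL vehicle 1 (edgeR). Grin1 kept a negative value there under all alternatives run, at -0.288 to -0.0478. Over all genes that comparison had 8 calls, against 160 by DESeq2, 5 by limma-voom, 2 with the compared groups only, 4 with the replicate block, 3, 0, 5 and 1 with the meninges, choroid plexus, thalamus and general neuron covariates, 2 without the libraries low in granule markers and 2 to 271 leaving out 1 library. In the same fits the other comparisons had 0 calls, except responders against FSL vehicle with 187 by DESeq2 and 349 without FSL vehicle 1, and non-responders against FSL vehicle with 2 by DESeq2. The F test over 4 groups had 3 calls, against 191 by DESeq2, 2 to 98 leaving out 1 library and 2 to 6 under the others. All-gene calls without the 3 choroid-high libraries (non-responder 1, FSL vehicle 1 and FSL vehicle 3) are not given. That setting leaves FSL vehicle 2 as the only library of its group. With the replicate block, Grin1 had -0.207 there and 0.0494 in non-responders against FSL vehicle, and the block changed no call. The cause of the changes of sign below was not tested; all are of values that did not pass. With scaling by library totals only, the sign turned for Grin2b -0.00609 in responders against FSL vehicle. With the meninges and fibroblasts covariate, the sign turned for Grin1 -0.0252, Grin2a -0.312 and Grin2b -0.195 in responders against FSL vehicle, Grin1 -0.035 in responders against non-responders and Grin2a 0.0507 and Grin2b 0.0122 in FSL vehicle against FRL vehicle. With the choroid plexus covariate, the sign turned for Grin2c 0.017 in responders against FSL vehicle, Grin2a 0.0322, Grin2b 0.0497, Grin2c 0.0275 and Grin2d -0.000823 in responders against non-responders and Grin2c -0.0454 in FSL vehicle against FRL vehicle. With the dentate granule neuron covariate, the sign turned for Grin3a -0.0307 in responders against FSL vehicle, Grin2c 0.0237 in responders against non-responders and Grin2c -0.0165 and Grin3a 0.0486 in FSL vehicle against FRL vehicle. With the general neuron marker covariate, the sign turned for Grin1 -0.0309, Grin2a -0.248, Grin2b -0.183 and Grin2d 0.0221 in responders against FSL vehicle, Grin1 -0.0577, Grin2a -0.0382 and Grin2b -0.0983 in non-responders against FSL vehicle and Grin2a 0.131, Grin2b 0.0912 and Grin2d -0.0351 in FSL vehicle against FRL vehicle. Without the 2 libraries low in granule neuron markers, the sign turned for Grin2c 0.0439 and Grin3a -0.445 in responders against FSL vehicle, Grin2a 0.0996, Grin2b 0.000947, Grin2c 0.0834, Grin2d -0.0289 and Grin3a -0.24 in responders against non-responders and Grin2c -0.0223 and Grin3a 0.0183 in FSL vehicle against FRL vehicle. Without the 3 choroid-high libraries, the sign turned for Grin2c 0.0196 and Grin2d 0.787 in responders against FSL vehicle, Grin2c 0.0564, Grin2d 1.04 and Grin3a 0.228 in non-responders against FSL vehicle, Grin2d -0.252 in responders against non-responders and Grin2c -0.0455 and Grin2d -0.763 in FSL vehicle against FRL vehicle. The values with FSL vehicle in this setting rest on FSL vehicle 2 alone. That library had 4.38 CPM of Grin2d, against 11 and 9.65 CPM in FSL vehicle 1 and 3. With limma-voom, the sign turned for Grin2d 0.012 in responders against FSL vehicle. With the thalamus covariate, the sign turned for Grin3a 0.0886 in non-responders against FSL vehicle, Grin2d -0.0459 in responders against non-responders and Grin2d -0.113 in FSL vehicle against FRL vehicle. Leaving out 1 library at a time, values in responders against FSL vehicle ran over 0, at -0.0786 to 0.417 for Grin2a, -0.0695 to 0.207 for Grin2b, -0.226 to 0.117 for Grin2c, -0.441 to 0.122 for Grin2d, -0.441 to 0.583 for Grin3a and -0.0588 to 0.309 for the log2 ratio of Grin2a to Grin2b. Leaving out 1 library at a time, values in non-responders against FSL vehicle ran over 0, at -0.00822 to 0.128 for Grin1, -0.016 to 0.252 for Grin2b, -0.164 to 0.171 for Grin2c, -0.471 to 0.112 for Grin2d and -0.392 to 0.029 for Grin3a. Leaving out 1 library at a time, values in responders against non-responders ran over 0, at -0.0145 to 0.0772 for Grin1, -0.339 to 0.0984 for Grin2a, -0.153 to 0.0822 for Grin2c, -0.252 to 0.2 for Grin2d, -0.241 to 0.788 for Grin3a and -0.257 to 0.11 for the log2 ratio of Grin2a to Grin2b. Leaving out 1 library at a time, values in FSL vehicle against FRL vehicle ran over 0, at -0.143 to 0.2 for Grin2c, -0.101 to 0.461 for Grin2d and -0.391 to 0.0182 for Grin3a. Depth limits Grin2d, with 33 to 69 reads per library, and Grin3b, with at most 2.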

Other observations

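The 3 libraries with the lowest ratio of Grin2a to Grin2b reads were those with the least Prox1, a coincidence seen after the values were known and not tested. Responder 1 had a ratio of 0.41 and 9.18 CPM of Prox1, FSL vehicle 2 had 0.445 and 51.6 CPM, and FRL vehicle 2 had 0.515 and 10.4 CPM. The other 9 libraries had ratios of 0.547 to 0.682 and 69.4 to 129 CPM of Prox1. The 3 libraries belong to 3 of the 4 groups.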
